A study of Mus musculus with 10 samples.

Results

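The fibrillar collagen genes described here were Col1a1, Col1a2, Col3a1, Col5a1, Col5a2, Col5a3 and Col11a1, 7 of the 39179 gene identifiers counted in each library. They were chosen by name, as the genes for the chains of collagen types I, III and V and for the first chain of type XI. RNA was sequenced from the tibialis anterior, a fast muscle at the front of the shin, of 4 Control mice and 6 LLC mice, to ask how gene expression shifts in muscle during the wasting of cancer cachexia. LLC stands for Lewis lung carcinoma, a mouse lung tumor line whose cells were injected under the skin of both flanks, and Control mice received buffer (PBS) in the same places. The sample labels give C57BL/6J mice and an age of 10 weeks, with a tumor day of 23 for LLC and of 0 for Control. The series' design text instead gives male C57BL/10 mice of 8 weeks and 22 days, and the disagreement could not be settled from the files. Each library came from 1 animal, and the LLC animals sequenced were survivors to the end of the experiment, per the study's methods. No mutant allele, transgene or drug is named for either group.

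Fibrillar collagens form the banded cables that give connective tissue its tensile strength. Type I, built from the Col1a1 and Col1a2 chains, is the bulk of the fibrils in tendon and in the sheaths around muscle. Type III, made of Col3a1 chains, is mixed with it in finer fibrils around muscle fibers and vessels. Type V, made from Col5a1, Col5a2 and Col5a3, starts fibrils and limits their width, and type XI, to which Col11a1 belongs, does so mainly in cartilage. In muscle the chains are made mostly by fibroblast-like interstitial cells marked by Pdgfra, the fibro-adipogenic progenitors, and by tenocytes, the cells of tendon.

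The microRNA family miR-29 is a known regulator of collagen transcripts, so its mature sequences and its seed matches in the members' 3′ untranslated regions are shown first. The seed (bases 2 to 8, in capitals) is shared by all members of the family. The sequences are from RefSeq on build GRCm38.p6.
mmu-miR-29a-3p: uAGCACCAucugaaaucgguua
mmu-miR-29b-3p: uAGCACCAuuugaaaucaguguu
mmu-miR-29c-3p: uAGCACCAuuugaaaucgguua

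The reverse complement of that seed is TGGTGCT, and it was searched on the transcribed strand of each 3′ untranslated region of the GENCODE annotation (build GRCm38). It stood once in Col1a1, Col3a1 and Col5a2, 4 times in Col5a1, 3 times in Col5a3, 2 times in Col11a1 and 0 times in the 882 bases of Col1a2. Of 11782 tested genes with an annotated 3′ untranslated region, 16.0% held at least 1 match, 2.55% at least 2 and 0.535% at least 3, and these regions differed in length between genes. For 5 of the members a match followed by an A is printed with its flanks, with the match in capitals. The capitals lie at chr11:94952538-94952544 in Col1a1 (plus strand), chr1:45348982-45348988 in Col3a1 (plus), chr2:28038034-28038040 in Col5a1 (plus), chr1:45374966-45374972 in Col5a2 (minus) and chr9:20770504-20770510 in Col5a3 (minus).
Col1a1: gtgggaaggaatttcTGGTGCTata
Col3a1: ttcaaaatgtctcaaTGGTGCTata
Col5a1: tacacttgtctcttgTGGTGCTatg
Col5a2: cttttcttttaatgaTGGTGCTaaa
Col5a3: ctccaccaggcctttTGGTGCTatt
A match is a string of letters and not a measured site, and levels of miR-29 were not analysed here. Whether the number of matches relates to the members' change in muscle was not tested.

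Each library held between 16693209 and 21303084 counts. In a fit over all 12690 genes that passed the filter on low counts, 506 were lower in LLC (3.99%) and 209 were higher (1.65%) by edgeR's quasi-likelihood test, at a Benjamini-Hochberg adjusted p of at most 0.05 and a change of at least 1.5-fold. DESeq2 called 5.23% of the same genes lower. In 9.57% of them every LLC library lay below every Control library, whatever the test said. LLC 1 stood apart from the other LLC libraries. Its summed level of muscle fiber markers was 83227 CPM (counts scaled to a common library total), against 112680 to 124120 CPM in the other 5 and 115700 to 124500 CPM in Control, so results that rest on it are also given without it.

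All 6 fibrillar collagen genes that passed the filter fell in LLC muscle, by edgeR and by DESeq2, against backgrounds of 3.99% and 5.23%. Their log2 fold changes ran from -3.09 to -1.21 with a median of -2.37, while the median over all tested genes was 0.00. In 5 of the 6 no LLC library reached the lowest Control library, and Col5a3 was the exception. Type I and type III chains fell the most, to between 11.7% and 14.7% of the Control mean CPM. Type V chains kept between 25.5% and 43.2%. The members' counts summed to between 207 and 286 CPM (by total counts, unscaled) in Control and to between 30.3 and 65.4 in LLC. In whole muscle, fewer collagen-making cells and less collagen RNA in each cell cannot be told apart.

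**Figure D1:**
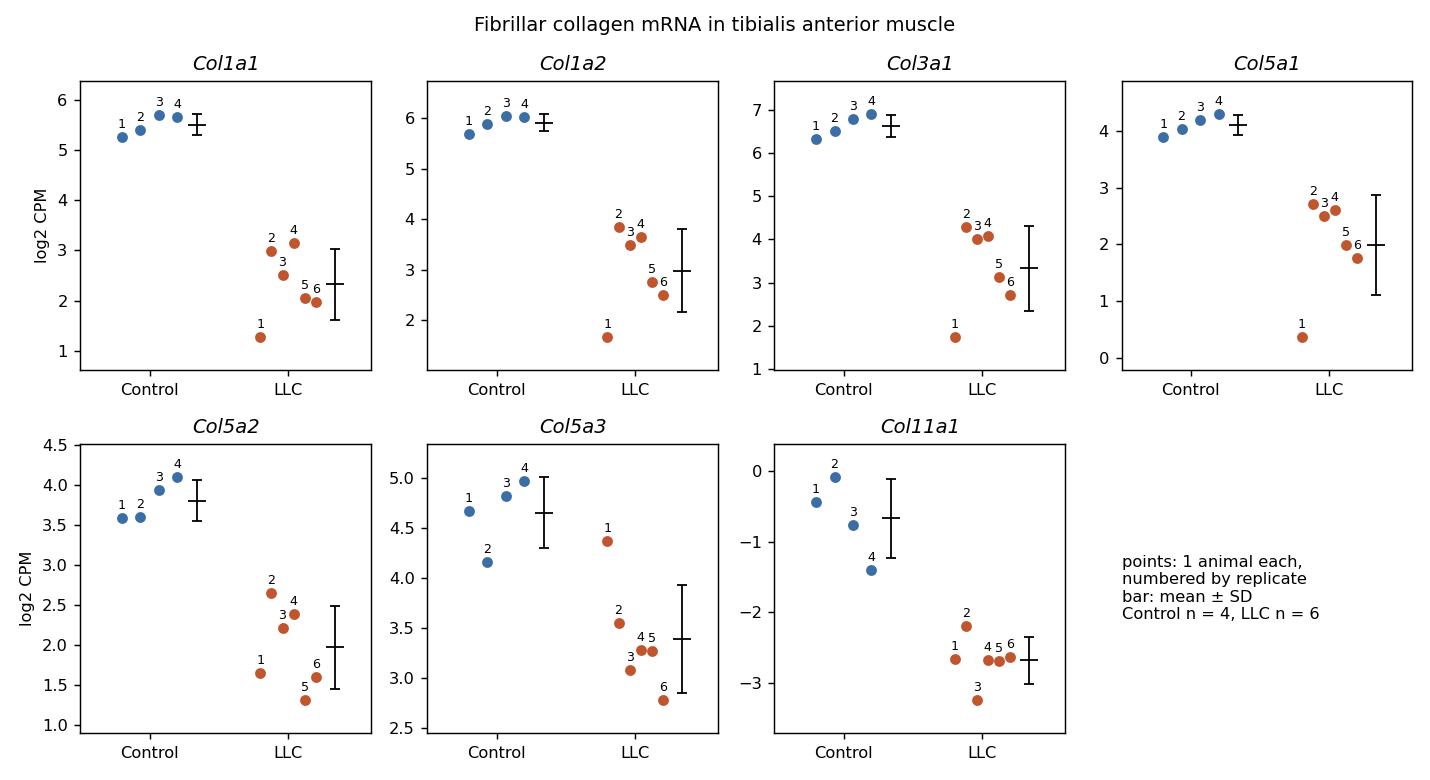
Log2 CPM (vertical axis) of each fibrillar collagen gene in the 4 Control and 6 LLC animals, 1 numbered point an animal, with the mean and SD beside each group. The LLC points lie below all Control points for every gene except Col5a3, where LLC 1, at 20.5 CPM, lies above Control 2, at 17.7 CPM.

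Col1a1 (ENSMUSG00000001506, chr11:94936224-94953042, plus strand, GRCm38) encodes the main chain of type I collagen. Its level was 38.3, 42.3, 51.8 and 50.6 CPM in Control 1 to 4 and 2.31, 7.85, 5.62, 8.77, 4.02 and 3.80 CPM in LLC 1 to 6. The lowest Control library stood far above the highest LLC library. The log2 fold change was -3.08 ± 0.29 (SE, edgeR adjusted p = 0.000184), and the mean went from 45.8 ± 6.51 (SD, n = 4) to 5.39 ± 2.51 CPM (SD, n = 6).

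Col1a2 (ENSMUSG00000029661, chr6:4504814-4541544, plus strand), the partner chain of type I, moved with it. Control libraries held 51.2, 58.9, 66.0 and 64.9 CPM and LLC libraries 3.09, 14.2, 11.1, 12.4, 6.64 and 5.59 CPM. LLC 1 was again the lowest library and the groups did not overlap. The log2 fold change was -2.77 ± 0.33 (SE, edgeR adjusted p = 0.000587).

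Col3a1 (ENSMUSG00000026043, chr1:45311538-45349706, plus strand), the only chain of type III collagen, had the highest CPM of the family in Control muscle. Its values were 80.3, 90.7, 110.6 and 118.5 CPM in Control and 3.24, 19.3, 16.0, 16.9, 8.58 and 6.48 CPM in LLC. The LLC libraries spread over a wider range, relative to their mean, than the Control libraries did, with coefficients of variation of 55.4% and 17.6%. The log2 fold change was -3.09 ± 0.39 (SE, edgeR adjusted p = 0.000866). The annotation places 1 microRNA gene (Gm47302) within its exons on the same strand.

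Col5a1 (ENSMUSG00000026837, chr2:27886425-28039514, plus strand) encodes the chain present in nearly all type V molecules. It stood at 14.7, 16.3, 18.2 and 19.6 CPM in Control and at 1.18, 6.44, 5.56, 6.00, 3.87 and 3.30 CPM in LLC. LLC 1 was far below the other 5 libraries, which lay at 3.30 CPM or more. The log2 fold change was -1.97 ± 0.32 (SE, edgeR adjusted p = 0.00359). Exons of 2 genes on the opposite strand overlap Col5a1, and they held 0 to 3 counts a library, against 23 to 357 for Col5a1.

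Col5a2 (ENSMUSG00000026042, chr1:45374321-45503282, minus strand) is the usual partner of Col5a1 and the neighbor of Col3a1 on the chromosome. Its Control values were 11.9, 12.0, 15.2 and 16.98 CPM and its LLC values 3.03, 6.16, 4.52, 5.09, 2.38 and 2.91 CPM. Here LLC 1 was not the lowest library, and the groups were again apart. The log2 fold change was -1.80 ± 0.24 (SE, edgeR adjusted p = 0.00107).

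Col5a3 (ENSMUSG00000004098, chr9:20770050-20815067, minus strand) encodes the third type V chain, found in a more limited set of tissues. Control libraries held 25.3, 17.7, 28.1 and 31.2 CPM. LLC 1, the lowest library for Col1a1, Col1a2, Col3a1 and Col5a1, was the highest LLC library for Col5a3, at 20.5 CPM, from 398 counts. The other LLC libraries held 11.6, 8.34, 9.57, 9.52 and 6.76 CPM, all below Control. The log2 fold change was -1.21 ± 0.27 (SE, edgeR adjusted p = 0.0211), the smallest among the 6 tested members, and without LLC 1 it was -1.47 (adjusted p = 0.000258). It no longer passed without Control 1, 3 or 4 or without LLC 5, at edgeR adjusted p of 0.0577, 0.0681, 0.0750 and 0.0543.

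Col11a1 (ENSMUSG00000027966, chr3:114030540-114220718, plus strand), a type XI chain, was near the limit of detection and did not pass the filter. It had 12, 17, 9 and 5 counts in Control and 1, 2, 0, 1, 1 and 1 counts in LLC. Every LLC library lay below every Control library, with 43 counts in all against 6. The rate per TMM-scaled library total was 10.6 times higher in Control (exact 95% interval 4.496 to 30.5, which covers counting error only). With no filter on low counts it was called lower, with a log2 fold change of -3.23 (edgeR adjusted p = 0.00158), a size that depends on the prior count.

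Without LLC 1, the log2 fold changes of the other tested members were -2.92 for Col1a1, -2.59 for Col1a2, -2.89 for Col3a1, -1.77 for Col5a1 and -1.73 for Col5a2, and all 6 were called. For 6 of 6 tested members the LLC libraries had the larger SD of log2 CPM, and the same held for 85.1% of all tested genes.

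Levels can be set against each other only per length. Per kilobase of annotated exon, as CPM divided by kilobases (RPKM), Control muscle held 10.2 ± 1.79 of Col3a1, 6.97 ± 0.99 of Col1a1, 4.85 ± 0.55 of Col1a2, 3.76 ± 0.85 of Col5a3, 2.02 ± 0.25 of Col5a1, 1.46 ± 0.26 of Col5a2 and 0.0439 ± 0.019 of Col11a1 (SD, n = 4). Neighbors in that order differed by more than the larger of their SDs. In LLC muscle Col5a3 stood first at 1.62 ± 0.72 RPKM, followed by Col3a1 at 1.20 ± 0.66, Col1a1 at 0.822 ± 0.38, Col1a2 at 0.712 ± 0.35, Col5a1 at 0.517 ± 0.23 and Col5a2 at 0.419 ± 0.15 (SD, n = 6), and neighbors in that order differed by less than the larger of their SDs. Without LLC 1 Col3a1 (1.37 RPKM) and Col5a3 (1.34) changed places. Parts of the order also turned with the length used. Over the longest transcript alone, Col1a2 (11.3 RPKM in Control) stood above Col1a1 (7.72), and in LLC Col3a1 (2.11) stood above Col5a3 (1.80).

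Ratios taken within a library do not depend on how libraries are scaled, and 8 of them were compared by exact permutation tests over all 210 assignments, with Benjamini-Hochberg adjustment over the 8. The smallest p this design allows is 0.00952, and ratios are given as geometric means of counts per exon length. The balance between types moved. Type V chains were 0.610 times type I chains in Control (0.515 to 0.672) and 1.81 times in LLC (1.13 to 5.72), a difference of 1.57 on the log2 scale (exact permutation test, two-sided, p = 0.00952, adjusted p = 0.0254). All 6 LLC libraries were above all Control libraries. The extreme value of 5.72 was that of LLC 1, and without it the difference was 1.23. With Col5a3 left out of type V, a comparison added after these values were seen, the ratio still went from 0.295 to 0.633, a difference of 1.10 (exact permutation test, p = 0.00952), again with 6 of 6 LLC libraries above Control.

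**Figure D2:**
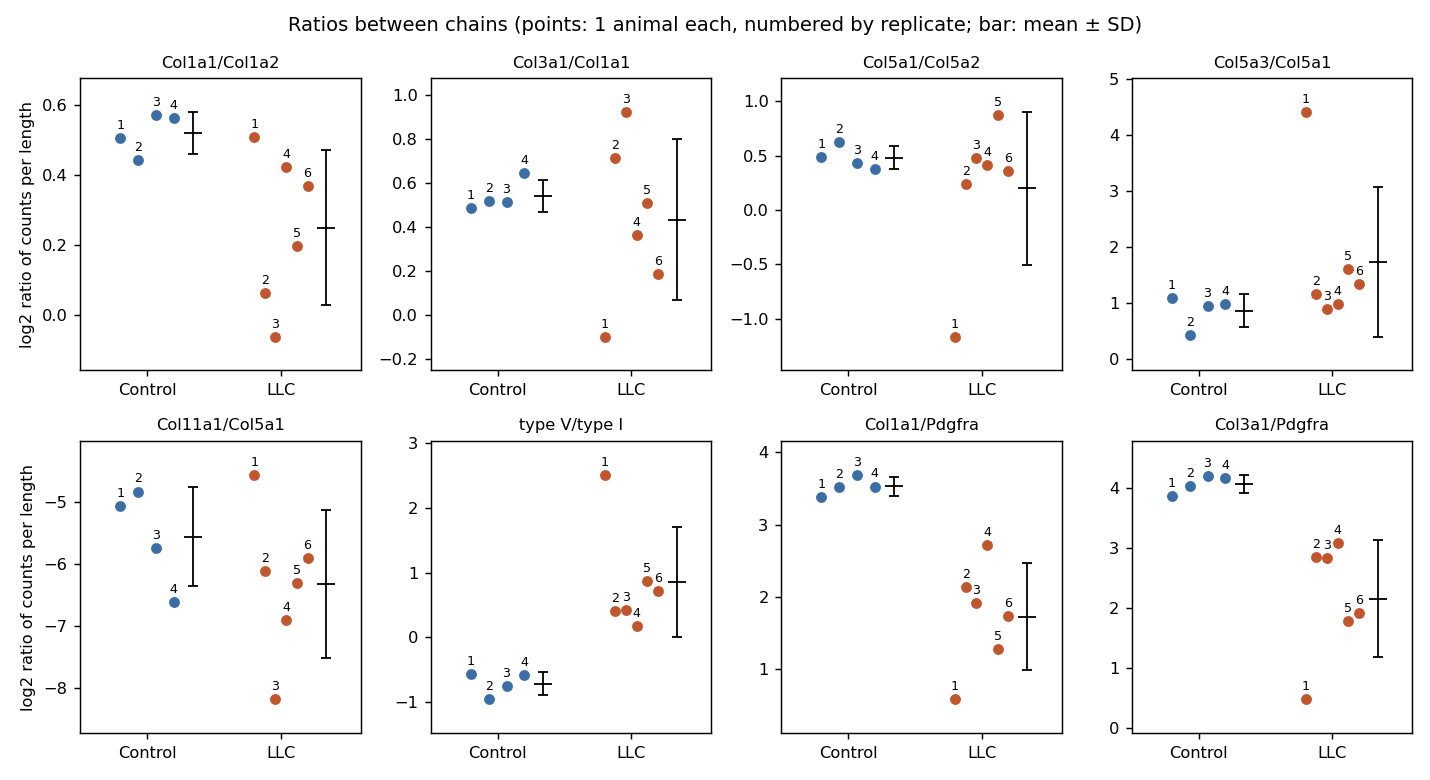
Log2 ratios of counts per exon length (vertical axis) in each animal, for 8 pairs of chains or chain sums, with mean and SD beside each group. Type V over type I is higher in all 6 LLC animals, both ratios to Pdgfra are lower in all 6, and LLC 1 lies away from the rest for Col5a3/Col5a1, Col5a1/Col5a2 and type V/type I.

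The ratios between chains of 1 type, and of type III to type I, did not pass the test after adjustment. Col1a1 over Col1a2 was 1.43 in Control and 1.19 in LLC, a log2 difference of -0.27 (exact permutation test, p = 0.0286, adjusted p = 0.0571) that passed without LLC 1 (adjusted p = 0.0317). Type III over type I, as Col3a1 over Col1a1, was 1.45 and 1.35 (exact permutation test, p = 0.590), with a wider range in LLC (0.933 to 1.90) than in Control (1.40 to 1.57). Col5a1 over Col5a2 was 1.40 and 1.15 (exact permutation test, p = 0.562), and LLC 1 had the lowest value at 0.446. Col5a3 over Col5a1 was 1.83 in Control and 3.33 in LLC, a log2 difference of 0.87 (exact permutation test, p = 0.0857, adjusted p = 0.137). LLC 1 had the highest value, at 21.1. The other LLC libraries ran from 1.87 to 3.06 and the difference without LLC 1 was 0.33. Col11a1 over Col5a1 gave p = 0.295 (exact permutation test) from very few Col11a1 counts.

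Pdgfra, the receptor that marks fibro-adipogenic progenitors, also fell, from 6.01 ± 0.50 CPM (SD, n = 4) to 2.27 ± 0.35 CPM (SD, n = 6), with a log2 fold change of -1.40 (edgeR adjusted p = 0.000184). Col1a1 and Col3a1 fell further than Pdgfra. The log2 fold change of Col5a3 was -1.21 ± 0.27 (SE), within its SE of that of Pdgfra. Without LLC 1 it was -1.47, while the LLC mean of Pdgfra was 2.25 CPM, so the order of these 2 genes rested on that library. Col1a1 over Pdgfra went from 11.5 in Control to 3.31 in LLC, a log2 difference of -1.80, and Col3a1 over Pdgfra went from 16.8 to 4.46, a log2 difference of -1.91 (both by exact permutation test, p = 0.00952, adjusted p = 0.0254). All 6 LLC libraries lay below all Control libraries for both ratios. Exons of 2 antisense genes overlap Pdgfra, and counts for them were not used here.

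**Figure D3:**
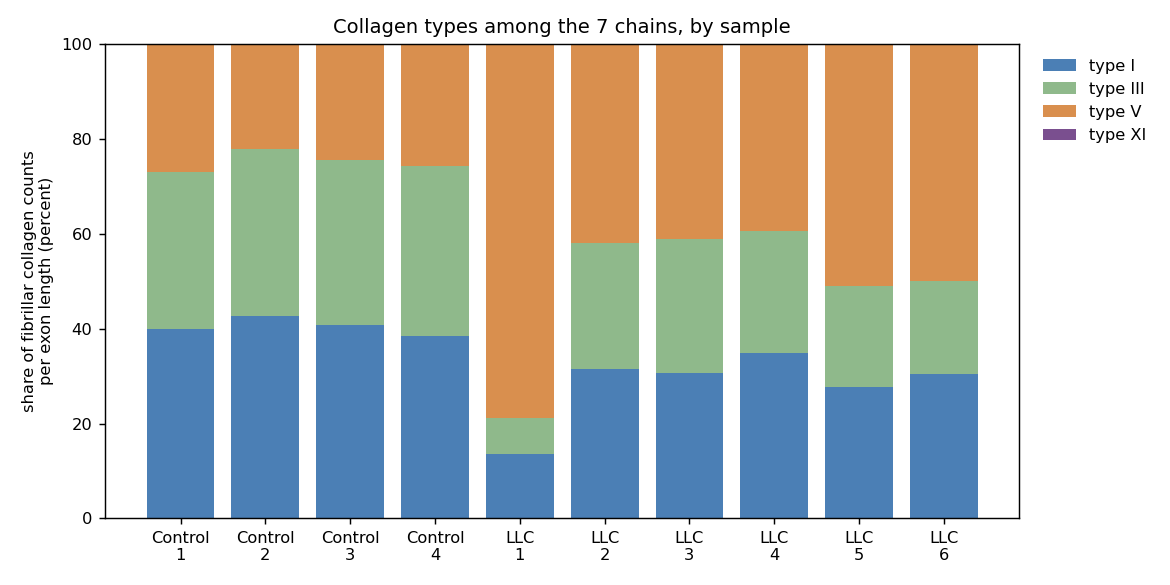
Share of each collagen type among the fibrillar collagen counts per exon length (vertical axis, percent), 1 bar an animal. Type V makes up 21.9% to 26.9% in Control and 39.4% to 78.7% in LLC, with LLC 1 the highest.

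As shares of the family's counts per exon length, type I made up 40.5% ± 1.75 in Control and 28.1% ± 7.45 in LLC. Type III made up 34.7% ± 1.27 and 21.5% ± 7.62, and type V 24.7% ± 2.12 and 50.3% ± 14.7 (SD, n = 4 and n = 6). The type V share was 78.7% in LLC 1 and 39.4% to 50.9% in the other LLC libraries. Type XI was below 1% in both groups, at 0.158% and 0.0824%. In raw counts, Col5a3 alone gave 7.41% to 11.4% of the family's counts in Control, 61.3% in LLC 1 and 16.3% to 27.2% in the other LLC libraries.

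Within the 6 LLC animals, Col1a1 followed Col1a2, Col3a1 and Col5a1. Pearson's r of log2 CPM was 0.97 with Col1a2 (Spearman's rho 0.943), 0.96 with Col3a1 (rho 0.943) and 0.93 with Col5a1 (rho 0.943), each with a permutation adjusted p of 0.0222 for r and 0.0444 for rho over 8 relations. It stayed at 0.95 or more for these 3 genes without LLC 1 and LLC 4, the 2 animals farthest from the median of Col1a1. With Col5a2, r was 0.81 (exact permutation p = 0.0667, adjusted p = 0.0889, rho 0.714), which did not pass. With Col5a3, r was -0.43 (exact permutation p = 0.439, rho 0.0286), and it turned to 0.68 without LLC 1. With the few counts of Col11a1, r was 0.16 (exact permutation p = 0.839, rho -0.0857).

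Col1a1 was also set against 2 ubiquitin ligases known for muscle atrophy. Col1a1 and Fbxo32 (atrogin-1) had r = -0.91 (exact permutation p = 0.0167, adjusted p = 0.0333) and rho = -0.886 (permutation adjusted p = 0.0533). Col1a1 and Trim63 (MuRF1) had r = -0.88 (exact permutation p = 0.0222, adjusted p = 0.0356) and the same rho. Without LLC 1 and LLC 4, r was -0.61 with Fbxo32 and -0.56 with Trim63, so much of both relations rested on those 2 animals.

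Of the 4 other genes for fibrillar chains 3 were tested and 1 fell, in a test where 3.99% of all genes did. Col27a1, a chain of cartilage and embryonic tissue, fell from 0.843 ± 0.22 CPM (SD, n = 4) to 0.360 ± 0.14 CPM (SD, n = 6), with a log2 fold change of -1.22 ± 0.29 (SE, edgeR adjusted p = 0.0294), and its groups did not overlap. The log2 fold changes of Col24a1 and Col11a2 were -0.48 (edgeR adjusted p = 0.345) and -0.18 (adjusted p = 0.666). Col2a1, the main cartilage collagen, was too low to test, at a mean of 0.0949 CPM in Control and 0.0618 CPM in LLC. The call of Col27a1 was lost without Control 2, 3 or 4 or without LLC 3 or 5 (edgeR adjusted p of 0.0827, 0.109, 0.0592, 0.0514 and 0.0625).

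The proteins that handle these chains were read from 6 lists, ordered from synthesis to removal, in which 30 genes fell and 4 rose in all. Over all tested genes 3.99% fell and 1.65% rose. The enzymes and carriers that modify, fold and export procollagen had a median log2 fold change near 0, at -0.10. Of 22 genes 21 were tested, 4 fell and 0 rose, against backgrounds of 3.99% and 1.65%. Those that fell were Colgalt2, which adds galactose to hydroxylysine (-1.26), P3h3, a prolyl hydroxylase family protein (-1.24), Sec24d, part of the coat that carries procollagen out of the endoplasmic reticulum (-0.83), and Larp6, which binds type I collagen mRNAs (-0.83). Serpinh1, the collagen chaperone Hsp47, had a log2 fold change of -0.39 (edgeR adjusted p = 0.124), and P4ha1, a catalytic subunit of prolyl 4-hydroxylase, one of -0.0031 (adjusted p = 0.990). Without Control 1 the falls numbered 2, with Larp6 and Sec24d lost (edgeR adjusted p of 0.0522 and 0.0644). The summed level of this list was 628 to 641 CPM in Control, 769 CPM in LLC 1 and 630 to 670 CPM in the other LLC libraries.

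**Figure D4:**
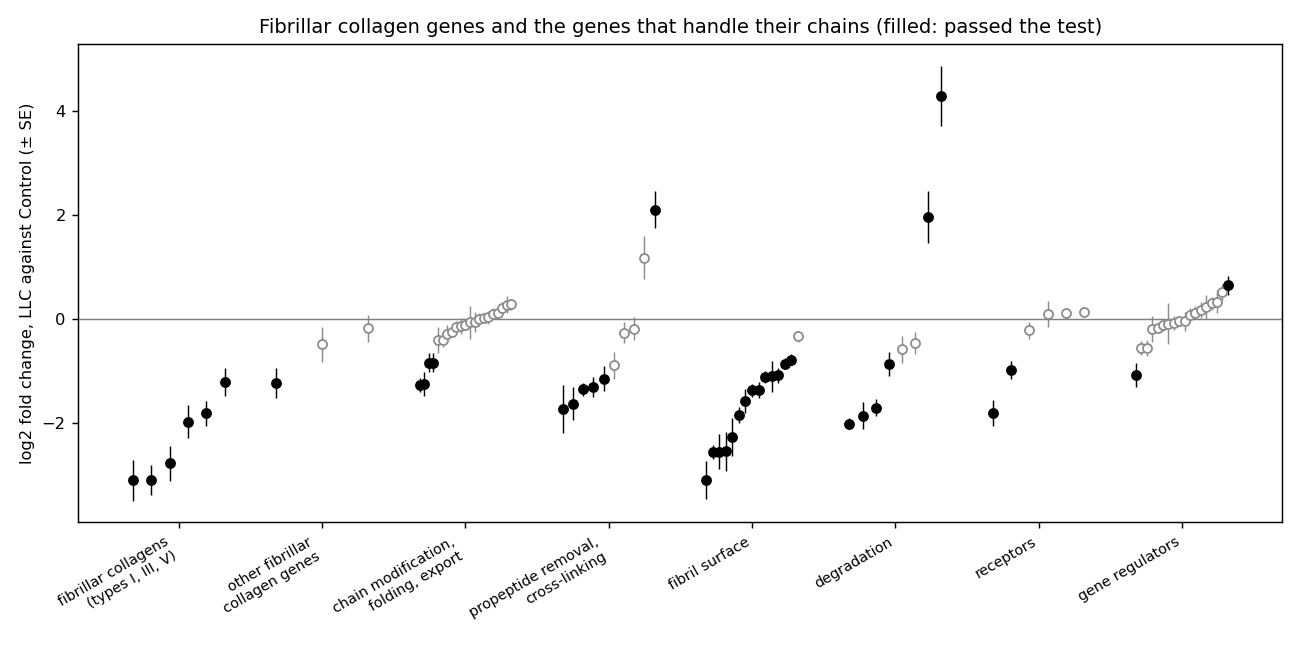
Log2 fold change of LLC against Control with its SE (vertical axis) for every tested gene, grouped by role (horizontal axis), filled where the gene passed the test. The members and the fibril surface genes lie below 0, whereas most genes for chain modification, folding and export and for gene regulation lie near 0.

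Among 13 genes that trim propeptides or cross-link fibrils, 10 were tested, 5 fell and 1 rose (median log2 fold change -1.01), against backgrounds of 3.99% and 1.65%. The largest falls were those of Adamts14, a procollagen N-proteinase (-1.72), Loxl2, a lysyl oxidase that cross-links chains (-1.62), and Bmp1, the procollagen C-proteinase (-1.35). Pcolce (-1.30) and Pcolce2 (-1.14), which enhance Bmp1, fell too. Tll1, a proteinase related to Bmp1, rose by 2.11 on the log2 scale (edgeR adjusted p = 0.00443), from 0.318 to 1.38 CPM. Without Control 1, 2 or 3 the falls numbered 3, since Adamts14 and Pcolce2 were no longer called.

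The proteins that coat the fibril moved with the collagens as a group. All 15 were tested, and 14 fell, against a background of 3.99%, with a median log2 fold change of -1.36. The largest falls were those of Postn, the matricellular protein periostin (-3.09 ± 0.36 SE), and of Fmod and Lum, the small leucine-rich proteoglycans fibromodulin and lumican (-2.55 ± 0.13 and -2.54 ± 0.34 SE). Fmod went from 18.3 ± 1.56 to 3.13 ± 0.54 CPM. Sparc, a collagen-binding glycoprotein, was the gene that did not pass, at -0.33 (edgeR adjusted p = 0.0785). Without LLC 1 the count of genes that fell was again 14.

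Of 10 genes for collagen breakdown, 8 were tested, 4 fell and 2 rose (median log2 fold change -0.72), against backgrounds of 3.99% and 1.65%. Mmp2, a gelatinase (-2.01), Ctsk, the collagen-cutting cathepsin K (-1.85), and Mrc2, the receptor that takes up collagen fragments (-1.70), fell the most, and Timp2, an inhibitor of metalloproteinases, also fell (-0.86). The 2 that rose, Mmp8 (4.30) and Mmp9 (1.97), are metalloproteinases known from neutrophils. Mmp8 went from 0.0503 to 1.15 CPM and Mmp9 from 0.449 to 1.76 CPM. Mmp8 was near the limit of detection in Control, so the size of its rise is uncertain. All 6 neutrophil markers rose in the same libraries, and their summed level was 1.006 to 2.02 CPM in Control and 32.6 to 71.8 CPM in LLC. S100a8, S100a9 and Csf3r, the first 3 of that list, rose by 6.33, 5.74 and 4.17 on the log2 scale. Their Control means were low, at 0.168, 0.382 and 0.280 CPM. The part of neutrophils in the 2 rises was not tested. Mmp9 was no longer called without Control 1, 2 or 4 or without LLC 2, 4, 5 or 6 (edgeR adjusted p from 0.0537 to 0.125).

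Of 7 collagen receptor genes 6 were tested and 2 fell, against a background of 3.99%. They were Itga11, the alpha subunit of an integrin that binds fibrillar collagen (-1.81), and Ddr2, the receptor kinase for fibrillar collagen (-0.97). Of 19 genes that regulate collagen transcription, 18 were tested, 1 fell and 1 rose, against backgrounds of 3.99% and 1.65%. In a list of this size such counts are close to what the backgrounds give. Ccn2, a target of TGF-beta signaling, fell (-1.07, edgeR adjusted p = 0.0185), and Tgfbr1, a TGF-beta receptor, rose (0.65, adjusted p = 0.0478), with LLC 1 the highest library at 58.3 CPM against a mean of 37.9 CPM. Tgfb1 itself had a log2 fold change of -0.56 (adjusted p = 0.0331) and missed the 1.5-fold limit. Ccn2 was not called without Control 3 or 4 (adjusted p of 0.0732 and 0.0617), and Tgfbr1 was not called without any 1 of the 4 Control libraries or without LLC 1, 2, 5 or 6.

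Markers of the cells that could carry these transcripts moved unevenly, and their part in the fall of the collagens was not tested. Of 11 genes of fibro-adipogenic progenitors 10 were tested, 6 fell and 1 rose, against backgrounds of 3.99% and 1.65%, with a median log2 fold change of -1.15. Those that fell were Pdgfra, Thy1 (-2.06), Dpp4 (-1.89), Cd248 (-1.83), Pi16 (-1.55) and Osr1 (-0.90). Ly6a rose by 0.95 on the log2 scale, and Cd34 had a log2 fold change of 0.26 (edgeR adjusted p = 0.185). Their summed level was 140 to 153 CPM in Control and 144 to 177 CPM in LLC, most of it from Prrx1, Cd34 and Ly6a, the most abundant genes of the list. Of 7 tenocyte genes 5 were tested and 4 fell (Tnmd, Egr1, Thbs4 and Comp), against a background of 3.99%. The summed level of the list was 54.2 to 76.6 CPM in Control and 8.02 to 28.0 CPM in LLC, lowest in LLC 1. Most of that sum came from Thbs4 and Egr1, at means of 43.9 and 14.1 CPM in Control and 15.1 and 3.05 CPM in LLC. Egr1 varied from 4.59 to 25.7 CPM among the Control libraries. Scx, the transcription factor that defines tendon cells, had a log2 fold change of -0.08 (edgeR adjusted p = 0.909), and Mkx was too low to test. Tnmd, the tendon protein tenomodulin, fell by 3.91, from 0.896 to 0.0544 CPM. That LLC level is near the limit of detection, so the size of the fall is uncertain. Scx is also 1 of the 19 regulators.

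For the other cell types, the counts of markers that fell stand beside 3.99% of all tested genes. Of the mural markers 4 of 6 fell (summed level 428 to 476 CPM in Control, 242 to 346 CPM in LLC). Among them were Pdgfrb (-0.75) and Rgs5 (-0.65), whereas Myh11 was at -0.13 (edgeR adjusted p = 0.592). Of 6 endothelial markers 1 fell (240 to 312 CPM against 235 to 278 CPM), namely Kdr (-1.13), while Pecam1 and Cdh5 were at 0.31 and -0.37 and did not meet both limits. Of 7 macrophage markers 6 were tested and 2 fell (10.4 to 18.0 CPM against 5.73 to 12.5 CPM). The first 3 of that list were not among them, with Adgre1 too low to test, Cd68 at 0.50 (adjusted p = 0.449) and Csf1r at -0.73 (adjusted p = 0.0868). Of 8 muscle fiber markers, which define the labelled tissue and were high in every library, 0 passed the test in either direction by edgeR or DESeq2 (Acta1 -0.44, Ckm -0.13, Myh4 0.13), against 3.99% and 1.65% of all genes. An unadjusted edgeR p under 0.05 was seen for 4 of the 8 and for 27.4% of all genes. The 5 epithelial markers that carcinoma cells could bring were below the filter, at no more than 0.657 CPM in sum, with Epcam at 0 counts in all 6 LLC libraries and Krt8 and Krt18 at means of 0.0165 and 0.0805 CPM.

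The genes whose pattern was most like the mean of the 6 tested members, by Pearson's r of standardized log2 CPM over all 10 samples, were Podn (0.993), Bmp1 (0.993), Col6a1 (0.991), Mrc2 (0.989), Fhl1 (0.989), Meg3 (0.986), Fstl1 (0.986), Fbn1 (0.985), Hmcn2 (0.983) and Col6a3 (0.983). These r values describe 10 points that fall into 2 groups and carry no test. Podn is a small leucine-rich proteoglycan, Col6a1 and Col6a3 are chains of the microfibrillar collagen VI, and Fbn1 is fibrillin. Over the 6 LLC samples alone only genes with an average log2 CPM of at least 1 were ranked, a limit not set for the first list. The nearest genes there were different ones, Acadvl (0.997), Wsb1 (0.985), Arhgef6 (0.985), Cox10 (0.982) and Slc47a1 (0.980). These are the highest values among many genes over only 6 points, and they carry no test either. Acadvl, an enzyme of mitochondrial fatty acid oxidation, had a log2 fold change between the groups of only -0.22 (edgeR adjusted p = 0.163).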

How the data were processed

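The authors mapped paired reads of stranded total RNA libraries to mm10 with TopHat2 and counted them with HTSeq at default settings, for which the tool counts by strand, and all libraries shared 1 lane. The deposited values are raw counts per gene, not normalized, 1 library per animal. The methods name RefSeq genes, whereas the deposited counts list Ensembl identifiers, so the annotation release was taken as unknown. Of 39179 identifiers, 37693 were found in GENCODE M21 (GRCm38), which gave symbols, coordinates and exon lengths. At 16693209 to 21303084 counts per library, 3 counts correspond to 0.141 to 0.180 CPM, and the interval given covers counting error only. No pair of replicates agreed within sampling noise.

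Counts were filtered by filterByExpr (minimum 10), scaled by TMM and tested with edgeR 4.0.16 (quasi-likelihood, R 4.3.3), group being the single factor. The study used DESeq2, which was run here (1.42.0) as an alternative, as was voom from limma 3.58.1. Benjamini-Hochberg adjustment covered all 12690 genes. CPM are TMM-scaled, and the prior count on the log2 scale was 2. Ratios used counts per exon length with 0.5 added, and exact permutation tests were two-sided (scipy). Scripts were tested on simulated data.

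The members and gene lists were chosen with earlier results of these data known. The genes named are all members, the 4 other fibrillar collagen genes, up to 3 genes called in each direction with the largest change in each list, the first 3 genes of each marker list, and the genes most alike in pattern. Serpinh1, P4ha1, Lox, Loxl3, Sparc, Tgfb1, Prrx1 and further called genes of short lists were added after their values were seen. Alternatives covered scaling, filter, test, threshold, exon length, pseudocount, a replicate block and leaving out single samples. Labels name each sample's group and replicate number, and the numbers belong to different animals.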

Additional observations from a re-analysis of the deposited data

Results flagged for a closer look

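In 30 groups of 4 or 6 values (7 genes and 8 ratios), a value was marked when its gap to the nearest other value, as a share of the group's range, exceeded Dixon's 95% critical value. Chance marks about 1 in 20 groups, and 3 were marked, all of them LLC 1. The Col5a3/Col5a1 ratio of LLC 1 was separated by 0.797 of the range of the 6 LLC values, the type V/type I ratio by 0.704 and the Col5a1/Col5a2 ratio by 0.690. The 3 ratios share the Col5a1 count of LLC 1, so they are not independent of each other. No level of a single member was marked.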

How the results depend on the processing

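Col1a1, Col1a2, Col3a1 and Col5a2 were called lower under all 19 alternatives, and their log2 fold changes ran from -3.28 to -1.60. The members called numbered 6 under scaling, filter and test alternatives, 7 with no filter and 5 to 6 with 1 sample left out. The other fibrillar genes called fell from 1 to 0 with a count minimum of 30, where Col27a1 was not tested, and ran from 0 to 1 with 1 sample left out. The pathway genes that fell numbered 24 to 32, and those that rose 2 to 4, with 1 sample left out. With a count minimum of 30, 0 of the 4 that rose were called (edgeR). Tgfbr1 was the only one of the 4 abundant enough to test there (unadjusted p = 0.00361, adjusted p = 0.0572).

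The log2 difference of type V/type I ran from 1.23 to 1.70 with 1 sample left out, that of Col1a1/Pdgfra from -2.0004 to -1.57 and that of Col3a1/Pdgfra from -2.09 to -1.57. Without a Control sample the adjusted p of these 3 was 0.0635, where the smallest unadjusted p possible is 0.0238. Col1a1/Col1a2 ran from -0.32 to -0.21. With a pseudocount of 2, Col11a1/Col5a1 turned to 0.11. Pearson's r with Col1a1, with 1 LLC sample left out, ran from 0.94 to 0.99 for Col1a2, 0.91 to 0.98 for Col3a1, 0.92 to 0.95 for Col5a1, -0.70 to 0.68 for Col5a3, -0.28 to 0.48 for Col11a1, -0.96 to -0.78 for Fbxo32 and -0.97 to -0.72 for Trim63. With 5 animals, the calls for Col1a2, Col3a1 and Col5a1 were lost without LLC 1, 3, 5 or 6 (permutation adjusted p of 0.0533 to 0.133), and those for Fbxo32 and Trim63 without any 1 LLC sample (0.0533 to 0.178). By the longest transcript, types I, III and V took 42.0%, 39.5% and 18.4% in Control and 32.5%, 26.1% and 41.2% in LLC. Col11a2 turned to 0.017 under voom with sample weights. The cause of these turns was not tested.

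The replicate numbers share only a number, since the correlations of deviations between same-numbered samples were -0.0292, 0.00932, -0.0814 and 0.126, and 1 of 4 correlated best with its own number. With the replicate number as a block, 4 members, 0 other fibrillar genes and 13 pathway genes were called lower and 2 pathway genes higher. Over all genes that fit called 70 lower and 42 higher. Col5a1 and Col5a3 were the members lost (adjusted p of 0.0804 and 0.187). Low counts limit Col11a1 and Col2a1.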

Other observations

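Seed matches to miR-29 in the 3′ untranslated region were present in 17.3% of the genes called lower and in 10.8% of those called higher, beside 16.0% of all tested genes with such a region. These are counts of letters, with no test. Of the other fibrillar genes, Col2a1, Col24a1 and Col27a1 held 1 match each and Col11a2 held 0.

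In RefSeq promoter windows (GRCm38.p6, around the gene's start), the motif CCAAT was searched on both strands. It stood in Col1a2, Col5a3 and Col11a1 and in 33.8% of all 32851 windows. No entry was matched for Col1a1 and Col5a2.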
